A study of Mus musculus with 4 samples.

Results

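Deep intragenic YAP sites are YAP peaks whose summit, the highest point of the peak, lies inside the span of a protein-coding gene and more than 10 kb from every protein-coding gene end. The sites come from chromatin immunoprecipitation with an anti-YAP antibody followed by sequencing (ChIP-seq) of epidermis from adult Bmal1 KO and Bmal1 WT mice. The mice were 18 to 25 weeks old and were killed at ZT4, which in Zeitgeber time is 4 hours into the light phase. Of 14879 peaks in the KO list, 3933 met the rule (26.4%, 95% interval 25.7 to 27.2). Of 36576 peaks in the WT list, 9162 met it (25.1%, 24.6 to 25.5). The rule uses positions alone and no read number. Each genotype has 1 list, whose peak names carry the word pooled, and 1 input without a file used here. The sources used here do not say what was pooled, nor in which cells Bmal1 was deleted. The genotype label says Bmal1 KO and the treatment protocol says Bmal1cKO. With 1 list per genotype no replicate spread can be had, so no test was run. The intervals given are exact 95% Clopper-Pearson intervals for shares, and exact Poisson intervals for numbers per Mb, and cover counting error only.

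YAP is a co-activator of the Hippo pathway that does not bind DNA by itself and reaches it mainly through TEAD transcription factors, often at enhancers where AP-1 factors also bind. Introns of long genes hold many enhancers, which may act on the host gene or on a neighbour, and some hold a further start of transcription. BMAL1, encoded by Arntl, activates clock genes and binds E-boxes together with CLOCK. In epidermis YAP is known for its part in the growth and adhesion of basal keratinocytes.

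Some members lay at annotated starts of transcription inside a gene, which gives their sequence a fixed place. Windows from 250 bases before to 50 bases after such a start were taken from RefSeq (GRCm38.p6, the build also called mm10). Each window is 300 bases, written 5′ to 3′ on the strand of its own gene, and the start is at base 251. Capitals mark the TEAD word (GGAATG, or CATTCC on the other strand) and the AP-1 word TGANTCA. The E-box CACGTG is not marked. Of the windows below, only those of Gm39098 and Sipa1l3 held it, 1 time each. The first 5 windows below are those whose member had the highest peak score, and they show how much the words vary among the strongest of these sites. The windows of Runx1, which encodes an epidermal and hair follicle transcription factor, and Il33, which encodes an alarmin cytokine of keratinocytes, were added for their genes. Fpgs, which encodes folylpolyglutamate synthase, held the highest-scoring member of this kind that was called in WT and not in KO. These choices were made after the values were seen.
Dst, chr1:34160010-34160309, plus strand: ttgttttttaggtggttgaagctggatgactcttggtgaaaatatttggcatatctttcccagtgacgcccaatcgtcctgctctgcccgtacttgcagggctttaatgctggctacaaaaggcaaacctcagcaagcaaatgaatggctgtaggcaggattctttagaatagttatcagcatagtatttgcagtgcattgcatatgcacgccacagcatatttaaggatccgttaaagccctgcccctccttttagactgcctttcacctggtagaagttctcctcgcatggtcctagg
Gm39098, a lncRNA gene inside Tacc2, chr7:130645908-130646207, minus strand: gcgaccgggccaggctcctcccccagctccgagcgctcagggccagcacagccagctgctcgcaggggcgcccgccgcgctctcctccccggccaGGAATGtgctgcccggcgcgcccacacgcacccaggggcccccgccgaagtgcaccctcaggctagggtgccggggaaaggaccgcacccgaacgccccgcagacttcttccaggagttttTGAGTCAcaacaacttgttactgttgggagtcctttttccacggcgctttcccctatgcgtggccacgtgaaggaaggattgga
Rbms1, chr2:60881389-60881688, minus strand: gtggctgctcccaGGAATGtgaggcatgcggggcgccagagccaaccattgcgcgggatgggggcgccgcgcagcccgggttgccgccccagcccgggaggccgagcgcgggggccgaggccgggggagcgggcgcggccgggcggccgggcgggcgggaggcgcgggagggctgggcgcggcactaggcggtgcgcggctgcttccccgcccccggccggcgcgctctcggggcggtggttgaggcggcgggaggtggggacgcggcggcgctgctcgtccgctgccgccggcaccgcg
Sipa1l3, chr7:29505411-29505710, minus strand: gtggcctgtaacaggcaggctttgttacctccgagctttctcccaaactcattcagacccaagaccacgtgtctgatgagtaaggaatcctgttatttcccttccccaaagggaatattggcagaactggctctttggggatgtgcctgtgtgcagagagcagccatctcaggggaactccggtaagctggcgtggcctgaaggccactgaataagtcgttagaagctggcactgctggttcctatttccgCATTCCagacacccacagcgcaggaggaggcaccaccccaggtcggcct
Sgms1, chr19:32210964-32211263, minus strand: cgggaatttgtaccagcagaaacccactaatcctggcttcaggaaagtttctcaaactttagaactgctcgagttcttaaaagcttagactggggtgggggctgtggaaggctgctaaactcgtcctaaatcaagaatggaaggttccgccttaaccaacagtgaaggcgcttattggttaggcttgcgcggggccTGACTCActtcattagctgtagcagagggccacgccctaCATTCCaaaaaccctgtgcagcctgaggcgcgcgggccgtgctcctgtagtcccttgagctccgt
Runx1, chr16:92697280-92697579, minus strand: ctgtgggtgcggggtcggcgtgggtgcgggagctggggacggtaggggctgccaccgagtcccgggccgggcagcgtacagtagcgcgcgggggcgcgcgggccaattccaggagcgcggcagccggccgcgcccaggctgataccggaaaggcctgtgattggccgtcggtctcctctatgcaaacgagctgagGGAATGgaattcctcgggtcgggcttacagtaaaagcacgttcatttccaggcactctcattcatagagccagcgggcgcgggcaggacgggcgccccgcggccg
Il33, chr19:29945540-29945839, plus strand: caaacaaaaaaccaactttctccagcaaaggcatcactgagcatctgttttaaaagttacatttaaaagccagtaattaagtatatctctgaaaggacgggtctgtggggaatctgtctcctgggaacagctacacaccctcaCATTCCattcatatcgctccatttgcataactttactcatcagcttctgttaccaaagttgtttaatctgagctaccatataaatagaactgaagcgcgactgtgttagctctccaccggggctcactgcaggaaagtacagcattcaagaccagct
Fpgs, chr2:32694126-32694425, minus strand: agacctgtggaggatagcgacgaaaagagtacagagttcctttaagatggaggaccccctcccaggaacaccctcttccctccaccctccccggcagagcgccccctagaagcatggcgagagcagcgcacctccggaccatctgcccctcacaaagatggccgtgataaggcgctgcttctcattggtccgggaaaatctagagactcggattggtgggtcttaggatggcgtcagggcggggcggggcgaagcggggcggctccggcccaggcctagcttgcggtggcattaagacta

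The number of ChIP reads at each summit was recovered from the deposited fold and p of the peak. A whole number of reads fitted every peak of both lists, with a background of evenly spread reads of 9.63 per window in KO and in WT. Read numbers of the lists therefore stand on one scale. The labels give 25 to 50 M reads per sample. A WT peak that shares at least 1 bp with a KO peak is called kept, and any other WT peak WT-only. KO peaks are likewise either shared with WT or KO-only. Fewer cells with YAP at a site and less YAP per cell cannot be told apart in such lists, and neither can the genotype and any other difference between the pools. YAP peaks read neither the Arntl transcript nor its deleted part, so they do not check the genotype labels.

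At the Dst start printed above, the site had 165 KO and 217 WT reads. Dst encodes dystonin, a linker of the cytoskeleton with an epithelial form in hemidesmosomes. Neither word was in its window, and the summit was at base 164. The member at Gm39098 had 113 KO and 192 WT reads. Its window held a TEAD word from base 96 and an AP-1 word from base 217, on either side of the summit at base 148. Sgms1, which encodes a sphingomyelin synthase, had 107 KO and 182 WT reads with the summit at base 252. Its AP-1 word from base 197 and its TEAD word from base 236 both lay before that start. Rbms1, which encodes an RNA-binding protein, had 98 KO and 185 WT reads with the summit at base 3 and a TEAD word from base 14. Sipa1l3, which encodes a GTPase-activating protein of Rap, had 98 KO and 172 WT reads with the summit at base 248 and a TEAD word from base 252. Runx1 had 105 KO and 161 WT reads, and Il33 had 64 KO and 128 WT reads. At Fpgs no KO peak was called and WT had 95 reads.

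The deep parts of genes made up 28.2% of the length of chromosomes 1 to 19 and X, 735 Mb in all. Each chromosome was measured from its first to its last annotated gene or WT peak. Deep parts held a slightly smaller share of the peaks than of the length. Members numbered 5.35 per Mb in KO and 12.5 per Mb in WT. Inside genes but within 10 kb of an end, there were 12.4 peaks per Mb in KO and 35.2 per Mb in WT. Outside protein-coding genes there were 4.62 per Mb in KO and 10.8 per Mb in WT. Deep gene parts were thus closer in density to intergenic sequence than to the ends of genes. The WT list had 2.33 times as many members as the KO list, against 2.504 times for all other peaks, 2.25 times for peaks outside genes at 10 to 100 kb from the nearest end, and 3.08 times for peaks within 1 kb of a gene end.

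Members had about the reads of other peaks and were a little narrower. Their median was 53 reads in KO (quartiles 44 and 69) and 61 in WT (48 and 87). Other peaks had medians of 52 reads in KO and 61 in WT. Median width was 445 bp in KO and 493 bp in WT for members, against 449 bp in KO and 525 bp in WT for other peaks. The range of members ran from 29 to 200 reads in KO and from 30 to 290 in WT. By the median, members lay farther from the nearest other summit than other peaks did in both lists. The share over 50 kb from it was 19.0% in KO and 8.08% in WT for members. For other peaks that share was 20.1% in KO and 7.83% in WT. The median distance to the nearest other summit was 12943 bp in KO and 6337 bp in WT for members, against 11138.5 bp in KO and 5141.5 bp in WT for other peaks.

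The 10 kb limit cut through a continuous run of sites. Just inside it, at 10002 to 10007 bp, lay sites in Cyfip2, Mmd, Tekt5, Rnf114 and Myh9, with 93, 93, 96, 43 and 44 WT reads, of which the first 3 were kept. Just outside, at 9975 to 9997 bp, lay sites in Ankrd29, Jup, Trpv1, Ttc9 and Arhgef37, with 64, 134, 42, 80 and 44 WT reads, of which 3 were kept. Between 10 and 11 kb there were 142 KO and 346 WT members, with 39.0% of the WT ones kept. Between 9 and 10 kb there were 147 KO and 328 WT peaks inside genes, with 40.9% of the WT ones kept.

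Of the WT members, 3794 (41.4%, 40.4 to 42.4) were kept in KO and 5368 were WT-only. Among all WT peaks, 39.1% were kept. The other WT peaks had 38.4% kept (37.8 to 39.0), and those within 1 kb of a gene end 31.0% (30.0 to 32.1). Intergenic peaks at 10 to 100 kb from the nearest end, the class most like the members in distance, had 42.7% kept (41.5 to 43.8). Once the other WT peaks were weighted to the score deciles of the members, 40.6% of them were kept, a value inside the interval of the members. Weighted to their reads in place of score, it was 39.75%, just under that interval. With the WT list cut by score to the length of the KO list, 78.9% of the WT members left were kept. The score is 10 times the deposited −log10 q.

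Whether a member was kept followed its score. In the lowest score decile 30 of 835 WT members were kept (3.59%), in the seventh 453 of 915 (49.5%) and in the highest 988 of 989 (99.9%). The intervals of members and of other peaks overlapped in each decile. The widest gap was in the sixth, where 33.0% of members (30.0 to 36.1) and 29.5% of other peaks (27.8 to 31.3) were kept. By reads, 10 of 735 members under 40 WT reads were kept and all 452 members of at least 150 WT reads were. Of the KO members, 3879 (98.6%, 98.2 to 99.0) overlapped a WT peak, with 99.0% among all KO peaks. The 54 KO-only members had 29 to 48 KO reads with a median of 38.

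**Figure D1:**
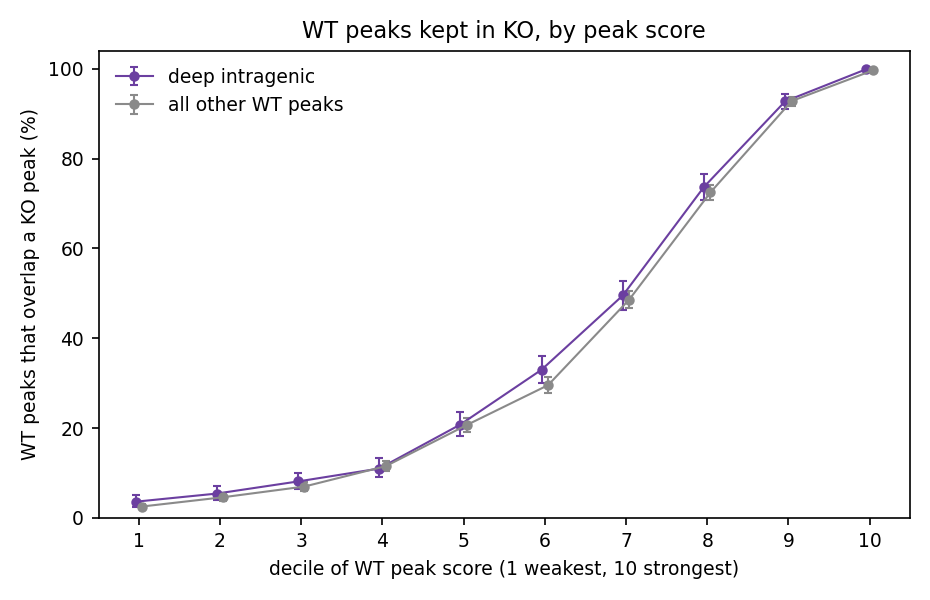
Share of WT peaks that overlap a KO peak (vertical axis, percent) by decile of WT peak score (horizontal axis, from weakest to strongest), for deep intragenic sites and all other WT peaks; bars are exact 95% intervals for counting error. Both curves run together from 3.59% of members and 2.52% of other peaks in the lowest decile to 99.9% of members and 99.6% of other peaks in the highest.

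Strong members, those with at least 120 WT reads, had fewer reads in KO nearly to the same degree as strong sites elsewhere. Of 1005 strong WT members, 1004 were kept. Their median was 84 reads in KO and 145 in WT. With the even background subtracted, KO reads were 0.552 of WT reads at the median site, or -0.86 as log2 (interval -0.88 to -0.83, interquartile range -1.03 to -0.70). KO was lower at 1004 of 1004 of these sites, as at 3685 of all 3686 strong kept WT peaks (100%). Strong sites were chosen by their WT reads alone, a choice that by itself favours lower values in KO, so these values are a description. The median was -0.90 at 100 and -0.77 at 150 WT reads or more. KO reads above background were at most 1 for every 2 WT reads at 293 of the 1004 (29.2%), with 30.7% among all strong kept WT peaks. These shares lie near those of all peaks.

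Other strong kept sites had a median log2 ratio of -0.89 (-0.90 to -0.88). To compare at equal WT reads, medians within narrow bins of WT reads were averaged, weighted by the members' numbers per bin. These averages were -0.86 for members and -0.89 for the others. The members' ratios had an SD of 0.244 between sites on the log2 scale, and counting alone gives 0.219. The ratio was -0.91 at members of 120 to 134 WT reads (median 72 KO and 127 WT reads) and -0.93 at those of 135 to 149. In the classes above these it was closer to 0, at -0.83 for 150 to 174 WT reads, -0.74 for 175 to 199 and -0.71 at the 98 members of at least 200 WT reads (median 137 KO and 214.5 WT reads).

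**Figure D2:**
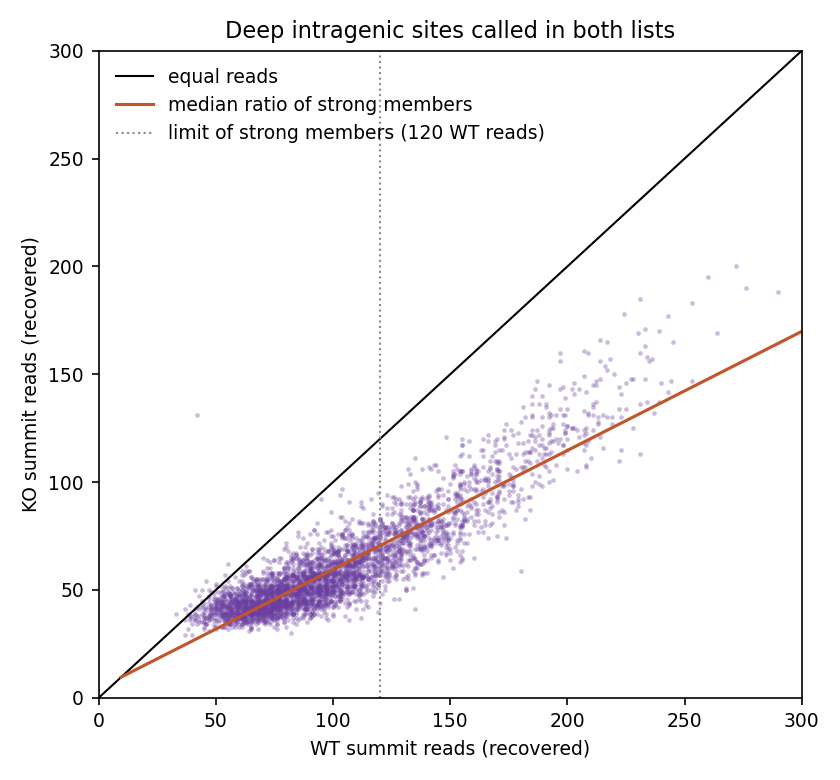
Recovered summit reads in KO (vertical axis) and WT (horizontal axis) of each WT member that overlaps a KO peak; lines mark equal reads, the median ratio of strong members (0.552 above background) and the limit of 120 WT reads. To the right of that limit every point lies under the line of equal reads; the point at 131 KO and 42 WT reads is a small WT peak in Zfp800 that lies under the same KO peak as a stronger WT peak of 198 reads.

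The highest-scoring kept members were in Dnm3, Pld1, Tmem45a, Rfx2, Ctdspl, Dstn, Slit3 and Afdn. Dnm3, which encodes a dynamin, had 190 KO and 276 WT reads on chromosome 1 from 162388461 to 162389561, 89347 bp from the nearest gene end. Pld1, which encodes phospholipase D1, had 169 KO and 264 WT reads on chromosome 3 from 28008176 to 28008976. Tmem45a, which encodes a transmembrane protein, had 188 KO and 290 WT reads on chromosome 16 from 56873201 to 56874070. This site had the most WT reads of all members. Afdn, which encodes afadin, a linker of nectins to actin at cell junctions, had 183 KO and 253 WT reads on chromosome 17 from 13866866 to 13868176. Dstn, which encodes the actin-depolymerising protein destrin, had 163 KO and 233 WT reads on chromosome 2 from 143929241 to 143930339. Slit3, which encodes a secreted ligand of Robo receptors, had 158 KO and 234 WT reads in a peak of 2328 bp that lay 292554 bp from the nearest end. Rfx2, which encodes a transcription factor, had 147 KO and 244 WT reads. Ctdspl, which encodes a phosphatase, had 171 KO and 233 WT reads. The log2 ratios of these 8 sites ran from -0.77 at Rfx2 to -0.47 at Ctdspl, all above the median of the strong members. All 8 had at least 200 WT reads, a class with a median of -0.71, and against it Rfx2 was lower.

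The highest-scoring WT-only members were in Cuedc1, Mob3b, Nav2, Arhgef3, Rprd1b, Deptor, Tjp1 and Itgb5. Cuedc1 had 115 WT reads on chromosome 11 from 88164656 to 88165376. Nav2, which encodes a neuron navigator protein, had 122 WT reads on chromosome 7 from 49332476 to 49333097 and was the 1 WT-only member of at least 120 reads. Tjp1, which encodes the tight junction protein ZO-1, had 110 WT reads on chromosome 7 from 65435495 to 65435993. Itgb5, which encodes an integrin subunit, had 105 WT reads on chromosome 16 from 33875484 to 33876106. Deptor, which encodes an inhibitor of mTOR, had 105 WT reads on chromosome 15 from 55200055 to 55200956. Arhgef3, which encodes a guanine nucleotide exchange factor, and Rprd1b each had 104 WT reads, and Mob3b had 109. In all, 22 WT-only members had at least 100 reads. At these sites no KO peak was called, which gives no KO read number.

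Among strong kept members, the highest KO to WT ratios were in D7Ertd443e (111 KO and 135 WT reads), Slc22a23 (121 KO and 148 WT), Cbl (160 KO and 197 WT) and Plekha6 (185 KO and 231 WT). Their log2 ratios were -0.31, -0.31, -0.32 and -0.34. Cbl encodes a ubiquitin ligase of receptor tyrosine kinases. The lowest ratios were in Stx8, which encodes a syntaxin, with 41 KO and 135 WT reads (-2.00), and in Nfia, which encodes a nuclear factor I protein, with 59 KO and 180 WT reads (-1.79). Dst had 46 KO and 128 WT reads (-1.70) at a second site on chromosome 1 from 34142942 to 34143738. Fgd4, which encodes an exchange factor of Cdc42, had 44 KO and 120 WT reads (-1.68). The strong members of Dst thus took in ratios from -1.70 to -0.42 within 1 gene, with -0.42 at the internal start printed above. The KO-only members with the highest score were in Nsmce2 (46 KO reads), Rnf144b (45), Arl15 (44) and Litaf (48), all under the median of KO members.

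Density fell with distance from the gene ends. Between 10 and 20 kb from the nearest end there were 7.14 members per Mb in KO and 16.9 per Mb in WT. Beyond 200 kb there were 1.43 per Mb in KO and 3.60 per Mb in WT. The kept share of WT members was 41.0% (39.1 to 42.9) in the nearest of these classes and 37.2% (32.1 to 42.5) in the farthest, and the intervals overlapped. Median WT reads were 62 in the nearest class and 57 in the farthest. Places beyond 200 kb occur only in long genes, and density also fell with the length of the deep part. Genes with up to 20 kb of deep part had 0.807 KO and 1.89 WT members per 100 kb. Those with over 500 kb had 0.174 KO and 0.410 WT members per 100 kb. The part of gene length in the fall with distance was not tested. The median distance of a member to the nearest end was 33288 bp in KO and 33339.5 bp in WT. The farthest member lay 966626 bp from any end, in Dlg2, which encodes a synaptic scaffold, with 39 WT reads and no KO peak. The next 4 were all in Fhit, which encodes a diadenosine triphosphate hydrolase, at 746798 to 797596 bp, with 38, 49, 52 and 60 WT reads and no KO peak.

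For 3078 KO and 7173 WT members inside a single span, the strand of the host gene was known from the RefSeq starts, so distance could be read from the 5′ and the 3′ end. Near the 5′ end the sites were denser. At 10 to 20 kb from the 5′ end there were 7.97 members per Mb in KO and 19.0 per Mb in WT (WT interval 17.9 to 20.1). At 10 to 20 kb from the 3′ end there were 6.33 per Mb in KO and 15.2 per Mb in WT (14.2 to 16.1). Farther in, the order was reversed, though a place far from the 3′ end can lie near the 5′ end. At 60 to 80 kb there were 6.42 per Mb in KO and 14.7 per Mb in WT (13.6 to 15.8) from the 5′ end, and 8.36 per Mb in KO and 17.9 per Mb in WT (16.7 to 19.2) from the 3′ end. The kept share of WT members lay between 40.3% and 44.4% in all 14 of these distance classes.

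**Figure D3:**
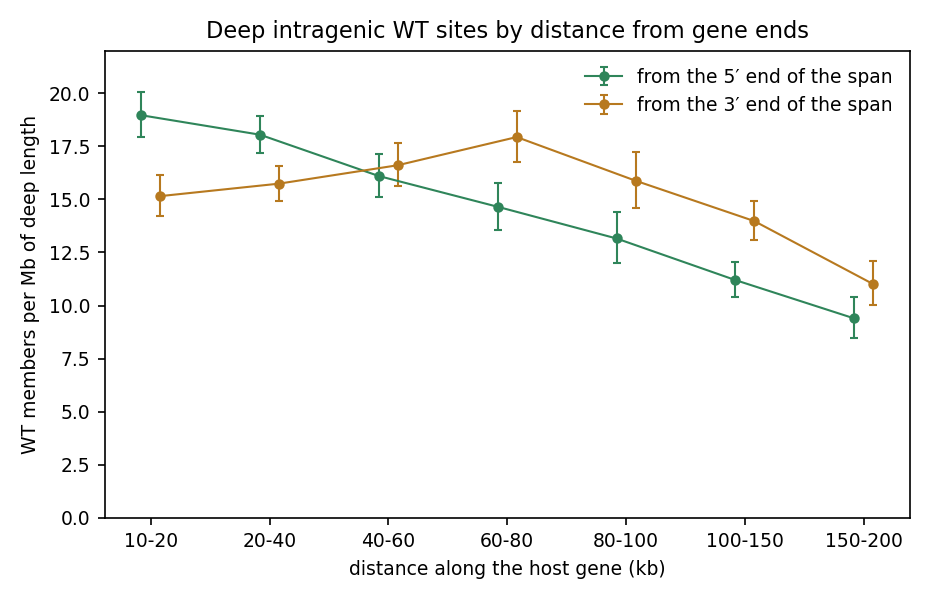
Number of WT members per Mb of deep gene length (vertical axis) by distance in kb from the 5′ or the 3′ end of the host gene span (horizontal axis, unequal classes); bars are exact 95% Poisson intervals. The 5′ curve starts at 19.0 and falls to 9.39, and the 3′ curve starts at 15.2, is highest at 17.9 at 60 to 80 kb and falls again beyond it.

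Members were more frequent at internal starts than the length of these stretches gives. RefSeq starts of 1490 protein-coding and 1760 lncRNA transcripts fell in the deep parts of genes outside chromosome 18, which was not analysed here for starts. The stretches within 1 kb of such a start made up 0.806% of the deep length. They held 172 of 3774 KO members (4.56%, 3.91 to 5.27) and 421 of 8771 WT members (4.80%, 4.36 to 5.27). Starts of protein-coding genes covered 0.379% of the deep length and had 2.99% of KO and 3.52% of WT members. Those of lncRNA genes covered 0.445% and had 1.78% of KO and 1.62% of WT members. Peaks near a start were wider, with a median of 568 bp in WT against 489 bp for members farther away, at medians of 60 and 61 WT reads. The kept share near a start of a protein-coding gene was 35.0% (29.6 to 40.6), and 36.5% among the members farther away at the same score deciles. Near a start of an lncRNA gene it was 45.8% (37.4 to 54.3), and 38.5% among those farther away. For starts of either kind the values were 39.2% (34.5 to 44.0) and 37.2%.

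The summit of a WT member lay in 190 of the 300-base windows printed in part above, 148 of them of protein-coding genes, each the host gene itself, and 42 of lncRNA genes. The TEAD word GGAATG was searched on both strands, and the AP-1 word TGANTCA and the E-box CACGTG read the same on both. Words were counted separately where they shared bases. Of all 32619 promoter windows, 14.6% held a TEAD word, 7.85% an AP-1 word and 7.20% an E-box. Of the internal windows without a member summit, 16.9% held a TEAD word, 9.08% an AP-1 word and 4.35% an E-box (3.65 to 5.13). Of the 190 windows with one, 18.4% held a TEAD word (13.2 to 24.7), 10.5% an AP-1 word and 7.89% an E-box (4.49 to 12.7). The TEAD share of all member windows was thus near that of the internal windows without a member. Of the 65 windows with a kept member, 32.3% (21.2 to 45.1) held a TEAD word, and of the 125 with a WT-only member 11.2% (6.26 to 18.1).

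Kept members had more reads, which goes with that difference. With 1 window per member, a TEAD word was in 20 of 59 windows of kept members (33.9%, 22.1 to 47.4; median 83 WT reads) and in 12 of 114 of WT-only members (10.5%, 5.56 to 17.7; median 50.5 WT reads). Within 60 to 99 WT reads the shares were 6 of 31 kept (19.4%, 7.45 to 37.5) and 4 of 39 WT-only (10.3%, 2.87 to 24.2), and the intervals overlapped. The CG dinucleotide count also differed, with a median of 9 per window for kept and 17 for WT-only members. The part of reads and of base composition in the TEAD shares was not tested. AP-1 words were in 10.2% of kept and 10.5% of WT-only members' windows, and E-boxes in 5.08% of kept (1.06 to 14.2) and 9.65% of WT-only (4.92 to 16.6). A word in a window is a description of the sequence and not a binding site.

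A deep part was present in 9823 of 21631 protein-coding genes. KO members were in 1839 of these genes (18.7%) and WT members in 3027 (30.8%). Of the genes with WT members, 1357 had exactly 1 and 158 had at least 10, and those 158 genes held 23.7% of all WT members. At least 10 KO members were in 19 genes. In 1204 genes no WT member was kept. Of 853 genes with at least 200 kb of deep part, 507 had no KO member and 346 no WT member.

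**Figure D4:**
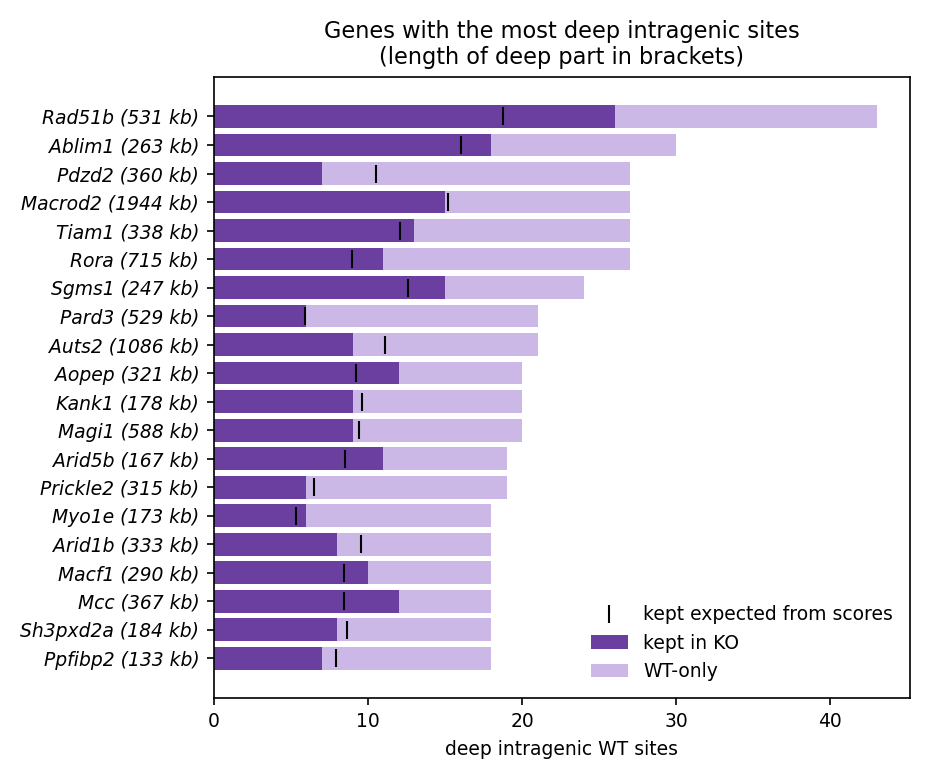
Number of WT members (horizontal axis) in the 20 genes with the most, with those kept in KO and those that were WT-only; ticks mark the number kept that other WT peaks of the same score deciles would give, and the length of the deep part is in brackets. Rad51b leads with 43 WT members, 26 of them kept against 18.8 from their scores, and Pdzd2 has 7 of 27 kept against 10.5.

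Rad51b, which encodes a protein of DNA double-strand break repair, had 28 KO and 43 WT members over 531 kb of deep part. Of the 43, 26 were kept, against 18.8 expected from the kept shares of other WT peaks in the same score deciles. WT reads ran from 37 to 225. The strongest site, on chromosome 12 from 79545671 to 79546539, had 146 KO and 225 WT reads. A second, from 79534834 to 79536080, had 103 KO and 170 WT reads. Sites with few WT reads were also called in KO in this gene, such as the one from 79433805 to 79434339 with 44 KO and 57 WT reads. The 6 strong kept sites had a median log2 ratio of -0.87, close to that of all strong members.

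Ablim1, which encodes an actin-binding LIM protein, had 22 KO and 30 WT members, of which 18 were kept (16.1 expected). Its strongest site, on chromosome 19 from 57272651 to 57273991, had 114 KO and 184 WT reads. Sgms1 had 15 KO and 24 WT members, of which 15 were kept (12.6 expected), with 114 KO and 193 WT reads at the strongest. Aopep, which encodes aminopeptidase O, had 13 KO and 20 WT members, of which 12 were kept (9.25 expected), with 113 KO and 231 WT reads at the strongest. In these genes more members were kept than their scores give, by few sites. They were grouped by this direction after their values were seen, and the differences were not tested.

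Pdzd2, which encodes a protein with PDZ domains, had 7 KO and 27 WT members, of which 7 were kept (10.5 expected). Its strongest sites, on chromosome 15 from 12573368 to 12574155 and from 12490407 to 12491678, had 124 KO and 211 WT reads and 123 KO and 192 WT reads. Between and around them, 20 sites of 41 to 87 WT reads were WT-only. Auts2, which encodes a regulator of neuronal transcription, had 10 KO and 21 WT members, of which 9 were kept (11.1 expected). Macrod2, which encodes an ADP-ribosylhydrolase, had 16 KO and 27 WT members over 1944 kb, of which 15 were kept (15.2 expected). Tiam1, which encodes a Rac exchange factor, had 14 KO and 27 WT members, of which 13 were kept (12.1 expected), with 92 KO and 138 WT reads at the strongest. Pard3, which encodes a polarity protein of the PAR complex, had 7 KO and 21 WT members, of which 6 were kept (5.91 expected). Kank1, which encodes a cortical regulator of actin, and Magi1, which encodes a junction scaffold, had as many WT members as Aopep, with 9 of 20 kept in each.

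Per length the order was another. The densest genes with at least 5 WT members were Mapkapk3 and Pak6, which encode protein kinases, Dtx2, which encodes a Deltex ubiquitin ligase, Niban2, and Ralgds, which encodes an exchange factor of Ral. They had 1, 1, 2, 2 and 4 KO members and 5, 5, 6, 9 and 6 WT members, or 30.0 to 33.4 WT members per 100 kb. All 5 had under 30 kb of deep part. Niban2 had 9 WT members that made 3 clusters with summits under 2 kb apart, and its strongest site had 97 KO and 145 WT reads.

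Among the 158 genes with at least 10 WT members, the kept share ran from 0% to 80%. Genes at both ends are named here after their values were seen. Chd9, which encodes a chromatin remodeller, had no KO member and 12 WT members of 33 to 88 reads, none kept, with 2.07 expected from their scores. Nfia had 1 of 10 kept, with 3.84 expected. Its 1 kept site was the one of 59 KO and 180 WT reads above. Dlgap1, which encodes a synaptic scaffold protein, had 8 of 10 kept, with 6.27 expected.

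Counts for 10 lists of genes grouped by role, chosen with earlier results of these data known, are set beside all genes with a deep part, which had 0.535 KO and 1.25 WT members per 100 kb. Of all those genes 18.7% had a KO member and 30.8% a WT member, at a median deep part of 29.0 kb. The share with a WT member was 12.0% in genes with up to 20 kb of deep part and 61.4% in those with over 200 kb to 500 kb. Genes with over 50 kb to 100 kb of deep part had a share of 47.8%, with 0.787 KO and 1.82 WT members per 100 kb. Genes of the YAP, TEAD and Hippo pathway had the highest density, with 2.06 KO and 4.54 WT members per 100 kb in 31 genes. Their median deep part was 71.9 kb. KO members were in 11 and WT members in 18 of the 31. Tead1, which encodes a DNA-binding partner of YAP, had 6 KO and 12 WT members, of which 6 were kept. Its strongest site, on chromosome 7 from 112719979 to 112721140, had 141 KO and 223 WT reads. Ptpn14, which encodes a phosphatase that binds YAP, had 6 KO and 14 WT members, of which 6 were kept, with 117 KO and 208 WT reads at the strongest. The kept share of the list was 43.6% (34.2 to 53.4), with 44.0% of other WT peaks at the same score deciles.

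Circadian clock genes had 1.22 KO and 2.64 WT members per 100 kb in 23 genes, with KO members in 7 and WT members in 10. Their median deep part was 33.4 kb. Of all genes with over 20 kb to 50 kb of deep part, 29.95% had a WT member, at 0.784 KO and 1.82 WT members per 100 kb. Rora, which encodes a nuclear receptor that activates Arntl, had 11 of the list's 24 KO members and 27 of its 52 WT members. Of these 27, 11 were kept (8.93 expected). None of the Rora sites was strong, and the highest-scoring had 60 KO and 105 WT reads. Npas2, which encodes a partner of BMAL1, had 3 KO and 8 WT members, with 119 KO and 186 WT reads at the strongest, on chromosome 1 from 39284500 to 39285311. Of the list's 52 WT members 44.2% (30.5 to 58.7) were kept, with 40.1% of other peaks at the same score deciles.

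**Figure D5:**
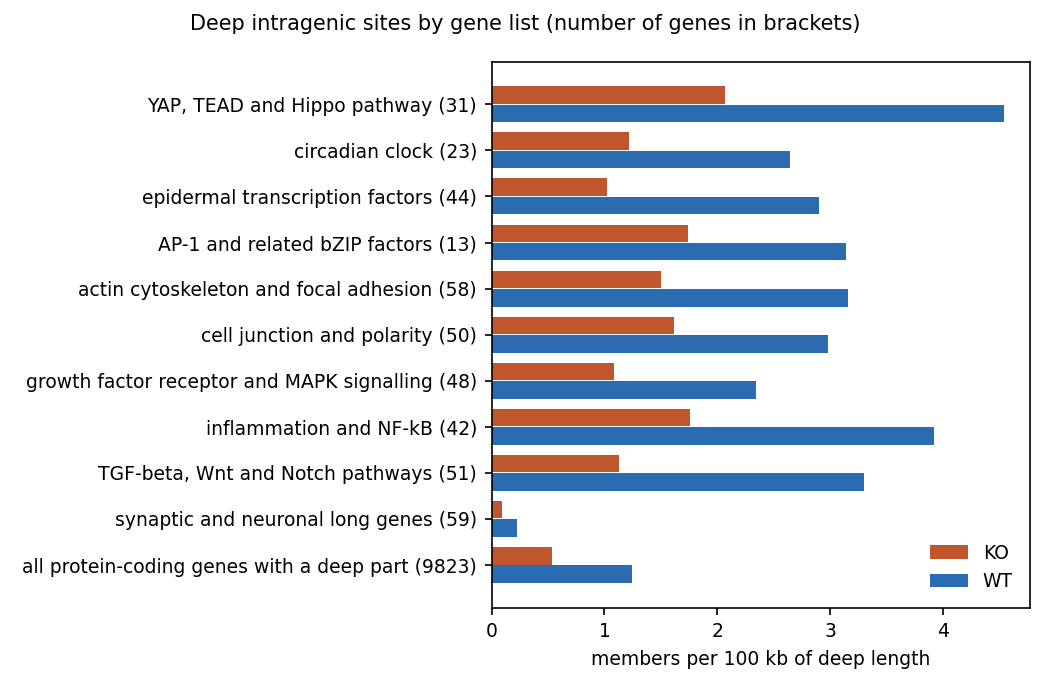
Members per 100 kb of deep gene length (horizontal axis) in KO and WT for 10 gene lists and for all protein-coding genes with a deep part, with the number of genes in brackets. The YAP, TEAD and Hippo list is highest at 2.06 in KO and 4.54 in WT, and the synaptic list lowest at 0.0930 in KO and 0.221 in WT.

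Epidermal transcription factors had 1.02 KO and 2.90 WT members per 100 kb, with KO members in 27 and WT members in 33 of 44 genes. Their median deep part was 82.0 kb. Trp63, which encodes the p63 regulator of stratified epithelia, had 6 KO and 14 WT members, of which 6 were kept. Its strongest site, on chromosome 16 from 25843216 to 25844857, had 156 KO and 235 WT reads. Foxp1 had 5 KO and 16 WT members, of which 5 were kept, with 76 KO and 120 WT reads at the strongest. Tcf4, which encodes a basic helix-loop-helix factor, had no KO member and 4 WT members of 38 to 68 reads, none kept. AP-1 and related factors had 1.74 KO and 3.14 WT members per 100 kb in 13 genes, with KO members in 3 and WT members in 6. The median deep part of these 13 genes was 51.4 kb. Creb5 alone had 6 KO and 16 WT members, with 125 KO and 202 WT reads at the strongest.

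The actin and focal adhesion list had 142 KO and 298 WT members, with KO members in 38 and WT members in 48 of 58 genes, at 1.503 KO and 3.15 WT members per 100 kb and with a median deep part of 106.3 kb. Besides Ablim1, Myo1e, which encodes a class I myosin, had 5 KO and 18 WT members, with 137 KO and 234 WT reads at the strongest. Tns1, which encodes tensin, and Myo5b, which encodes a class V myosin, had 4 WT members each and none kept, at 30 to 57 WT reads in Tns1 and 40 to 55 in Myo5b. The junction and polarity list had 114 KO and 210 WT members, with KO members in 29 and WT members in 37 of 50 genes, at 1.62 KO and 2.98 WT members per 100 kb and with a median deep part of 48.6 kb. Its kept share was 48.1% (41.2 to 55.1), with 44.2% of other peaks at the same score deciles.

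In growth factor and MAPK signalling, KO members were in 21 and WT members in 29 of 48 genes, at 1.09 KO and 2.34 WT members per 100 kb and with a median deep part of 61.9 kb. Egfr, which encodes the EGF receptor, had 7 KO and 15 WT members, of which 7 were kept (5.55 expected). Its strongest site, on chromosome 11 from 16768942 to 16769893, had 119 KO and 194 WT reads. Tgfa, which encodes a ligand of that receptor, had 4 KO and 5 WT members, with 146 KO and 240 WT reads at the strongest. Ptpn11, which encodes the phosphatase SHP2, had 4 WT members of 51 to 58 reads, none kept.

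The inflammation and NF-kB list had 1.76 KO and 3.92 WT members per 100 kb, the second-highest WT density, in genes with a median deep part of 25.6 kb. KO members were in 17 and WT members in 22 of 42 genes. Il6ra, which encodes the receptor of IL-6, had 1 KO and 6 WT members in 23.9 kb, of which 1 was kept. Traf5, which encodes a TNF receptor adaptor, had 92 KO and 173 WT reads at its strongest site. Tnfrsf19 and Il20ra, which encode cytokine receptors, had 4 and 3 WT members of 38 to 61 reads, none kept. In the TGF-beta, Wnt and Notch list, KO members were in 23 and WT members in 33 of 51 genes, at 1.13 KO and 3.30 WT members per 100 kb and with a median deep part of 53.5 kb. Its kept share of 33.3% (25.2 to 42.3) was the lowest of the lists, with 31.8% of other peaks at the same score deciles. Maml3, which encodes a Notch co-activator, had 5 KO and 17 WT members, of which 5 were kept. Ski, which encodes a SMAD repressor, had 140 KO and 189 WT reads at its strongest site. Tle3, which encodes a Groucho co-repressor, had 3 WT members of 37 to 62 reads, none kept. In each of these 10 lists the kept share of other peaks at the same score deciles lay inside the list's own interval.

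Long genes known from neurons were poor in sites for their length. The list of 59 synaptic and neuronal genes had 0.0930 KO and 0.221 WT members per 100 kb, and all genes with over 500 kb of deep part had 0.174 KO and 0.410 WT members per 100 kb. Among genes with no member in either list were Dmd, which encodes dystrophin and has 2297 kb of deep part, Ptprd (2250.5 kb), Cntnap2 (2221 kb), Lrp1b (2038 kb) and Nrxn3 (1592 kb). They are named for their length, after their values were seen. Rbfox1, which encodes a splicing regulator, had 2 KO and 3 WT members in 1508 kb, and 1 of them was strong with 101 KO and 194 WT reads. Density also fell with length over all genes, from 0.807 KO and 1.89 WT members per 100 kb at up to 20 kb of deep part.

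For markers of the labelled tissue, KO members were in 7 and WT members in 7 of 9 keratinocyte marker genes with a deep part, at 3.10 KO and 6.04 WT members per 100 kb and with a median deep part of 27.3 kb. None of 8 fibroblast marker genes had a member in either list. Their median deep part was 19.3 kb, and their deep parts together made 0.32 Mb. Of all genes with up to 20 kb of deep part, 12.0% had a WT member, at 0.807 KO and 1.89 WT members per 100 kb. Of those with over 20 kb to 50 kb, 29.95% had one, at 0.784 KO and 1.82 WT members per 100 kb. The part of length in the marker counts was not tested. Of the other marker genes with a deep part, KO members were in 1 and WT members in 1 of 6 for melanocytes, in 0 and 1 of 7 for Langerhans cells, in 1 and 2 of 6 for T cells, in 2 and 3 of 9 for endothelium, and in 3 and 4 of 10 for neurons. Median deep parts were 55.2 kb for melanocytes, 77.2 kb for Langerhans cells, 59.1 kb for T cells, 94.0 kb for endothelium and 456.3 kb for neurons. Of all genes with over 50 kb to 100 kb of deep part, 47.8% had a WT member. Of those with over 200 kb to 500 kb, 61.4% had one. YAP peaks do not measure transcripts, so these counts say only which genes carry sites.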

How the data were processed

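YAP ChIP-seq of epidermal cells gave 1 peak list per genotype, KO and WT. The submitters' processing notes name Trimmomatic 0.36, SAMtools 1.5, MACS2 2.1.1 and the build mm10. The sources used here give neither the aligner nor the use of the inputs. For each peak the authors deposited a score (10 times −log10 q, as whole number), a fold (a ratio of summit signal to background), the −log10 of p and of q, and the distance of the summit from the peak start. The lowest deposited −log10 q was 2.03 in KO and 2.01 in WT. The lists hold no read counts.

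Fold and p depend on the whole number of summit reads, the scale of ChIP to input and the background. The scale of each list was searched for, and the reads at each summit follow from it. Every peak (100%) of both lists had a whole number that matched −log10 p to within 0.002, as did only 0.397% of KO and 0.930% of WT peaks with the scale 3% off. The recovered scale was 0.842 for KO and 0.694 for WT. On simulated lists that follow the same formulas, exact reads came back for 100% of 14825 KO peaks and 99.99% of 36271 WT peaks, which checks the solving alone.

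Spans of 21631 protein-coding genes and starts came from RefSeq tables of GRCm38.p6. They give no exons, so exon or intron was not assigned. Members inside 2 spans (17 KO and 44 WT) count for both genes. All genes of the 10 gene lists reported matched a RefSeq symbol, and 1 further list is not reported here. For the log2 ratio a kept peak was paired with its strongest overlapping KO peak, and 9.63 reads were subtracted on both sides. Motif shares were planned around summits. With no genome used here, they were taken from promoter windows. Members, gene lists, limits and the rule for named genes were chosen with earlier results of these data known. The rule names the highest-scoring kept, WT-only and KO-only members, the extreme ratios, the genes with the most and the densest members, the members farthest from an end, and in each list the genes with the most members, the highest-scoring member, or at least 3 members and none kept. Work was done in Python 3.11.15 with NumPy 2.4.6, pandas 2.3.3, SciPy 1.17.1 and Matplotlib 3.10.9.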

Additional observations from a re-analysis of the deposited data

How the results depend on the processing

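No paired analysis was possible because the KO and the WT list are 1 each. Of the alternatives run, 17 moved a value beyond its counting interval, or a count beyond 1.5 times, and 36 did not. The 36 include, for each of 11 gene lists, the genes counted from members inside 1 span only. Just 44 of 9162 WT members lay inside 2 spans, so these counts could hardly move. In 1 list the count differed at all. The median log2 ratio stayed negative in every alternative run for it. The counts of members and the kept share stayed within these limits with a 5 kb or a 20 kb rule, with the ends of every annotated gene and at −log10 q of at least 5. With a fold of at least 5 in both lists there were 1440 KO and 4325 WT members, with 32.25% of the WT ones kept. With 50% reciprocal overlap 83.98% of KO members were shared and 36.08% of WT members kept. With the WT list cut by score to as many peaks as the KO list holds, the values were 80.17% and 78.91%, since the lists then have equal length. With summits within 200 bp, 94.51% of KO members were shared. The median log2 ratio of KO to WT reads was -0.90 at 100 and -0.77 at 150 WT reads or more, and -0.78 without subtraction of background. Other WT peaks weighted in bins of reads had 39.75% kept, a value under the interval of the members. By deposited fold the median strength of WT members was 1.032 times that of other peaks. Ranked per 100 kb, 0 of the 10 leading genes remained, and short deep parts led by construction. Within 500 bp and 2 kb of an internal start lay 3.63% and 6.35% of WT members. Without genes of over 200 kb of deep part there were 17.61 WT members per Mb. That is above the 14.0 per Mb of the whole WT list, while the 12.5 per Mb of all WT members is below it. The distances to a start, the genes left out for length, the leading genes left out and 1 window per member were chosen after seeing the data. For the other values that moved, the cause was not tested. Windows around summits for motifs were not run. With 1 pool per genotype, differences between genotypes have no replicate check.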

Other observations

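Of 253 miRNA hairpins in the deep parts of genes, 33 lay within 5 kb of the summit of a WT member (13.0%, counting interval 9.15 to 17.8) and 13 within 1 kb (5.14%, 2.76 to 8.63). Of the deep length itself, 9.01% lay within 5 kb and 2.33% within 1 kb of such a summit. The strongest such member, in Syne2, which encodes a nesprin of the nuclear envelope, lay 3628 bp from Mir5101 and had 148 KO and 227 WT reads. A member in Cux1, which encodes a homeodomain factor, lay 1370 bp from Mir721 with 107 KO and 208 WT reads. One in Hadhb, which encodes a subunit of the mitochondrial trifunctional protein, lay 279 bp from Mir1960 with 107 KO and 167 WT reads. The nearest, in Gse1, lay 49 bp from Mir7687 with 76 KO and 147 WT reads. At Mir326 in Arrb1, which encodes a beta-arrestin, and at Mir139 in Pde2a, which encodes a phosphodiesterase, members of 65 and 62 WT reads at 1461 and 978 bp were WT-only. These pairs were named after their values were seen.

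By chromosome, the density of members was highest on chromosome 19, with 8.61 per Mb of deep part in KO and 20.2 per Mb in WT, and on chromosome 11, with 8.14 per Mb in KO and 18.5 per Mb in WT. It was lowest on chromosome X, with 1.20 per Mb in KO and 3.60 per Mb in WT. The kept share of WT members on X was 33.3% (25.0 to 42.5), with 35.1% of other WT peaks at the same score deciles. Across the 20 chromosomes it ran from 33.3% on X to 45.7% on chromosome 16.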
